A study of Mus musculus with 2 samples.

Results

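Mitochondrial ribosomal protein genes were compared between 2 mouse mesoangioblast clones, D16 and D351. They were found as the probe sets of the array that the platform annotation gives a single symbol starting with Mrpl or Mrps and a digit. There were 76 such probe sets among 12422 non-control probe sets, and they stood for 61 of the 8251 genes with a name. The large subunit of the ribosome (Mrpl) had 40 genes and 51 probe sets, and the small subunit (Mrps) 21 genes and 25 probe sets. Mesoangioblasts are vessel-associated progenitor cells of the embryonic aorta. Both clones were derived from the dorsal aorta of C57BL6 embryos at E9.5. Explants were cultured for 5 days, and single cells were then cloned on a feeder layer of embryonic mouse fibroblasts treated with Mitomycin C, in RPMI with 20% Fetal Calf Serum, and expanded on gelatin. Each clone is 1 expanded clone measured on 1 Affymetrix U74A array, with no further treatment named. Every difference is therefore a size between these arrays, with no test, and clone and array cannot be told apart.

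The mitochondrial ribosome translates the few messenger RNAs of the mitochondrial genome, which encode core subunits of the respiratory chain and ATP synthase. Its RNAs are made in the mitochondrion, but all of its proteins are encoded in the nucleus, made in the cytosol and imported. Many of them descend from bacterial ribosomal proteins, and others are found in mitochondria alone. Loss of single members, among them MRPS22, MRPS16, MRPL3, MRPL12 and MRPL44, causes combined respiratory chain deficiency in people.

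Values are intensities per probe set on a linear scale, scaled so that both arrays had the same median log2 level. An intensity floor of 17.4, the 40th percentile of all non-control values, marked the lowest level used. Each gene was represented by the probe set with the highest mean intensity. Of the 61 genes, 58 reached the floor in both clones, 2 (Mrpl46 and Mrpl14) in D16 alone, and 1 (Mrpl49) in neither. The 60 genes with a ratio had intensities from 20.6 to 1215 in D16 and from 9.87 to 969 in D351. Intensity depends on the probes as well as on the RNA, so levels were compared between clones and not between genes. In bulk RNA, fewer cells with a transcript and less of it in each cell cannot be told apart.

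Most members had somewhat lower intensities in D351 than in D16, a direction that turned when the arrays were scaled on their hybridization controls. The log2 ratio, taken as D351 over D16 throughout, was below 0 for 44 of the 60 genes (73.3%), against 51.4% of the 6101 genes measured on the array. With that scaling the count was 27 of 60 (45%), against 30.3% of all genes. The median ratio of the members was -0.28 and that of all genes -0.03. The quartiles of the members were -0.77 and 0.04. In D16, 6 members (10%) were higher by 2-fold or more, near the 8.83% of all genes. In D351, 0 of 60 members were higher by that much, and 10.6% of all genes were. At the smaller size of 1.5-fold, 18 members (30%) were higher in D16, against 21% of all genes, and 2 were higher in D351, against 21.1%. Ratios spread less among members than over the whole array. The ratios of members measured in both clones had an SD of 0.57, and those of all genes an SD of 0.82. Over those 58 members Pearson's r between the log2 levels of the clones was 0.872 and Spearman's rho 0.836, and over 5202 genes they were 0.864 and 0.850. These correlations are across genes of the same pair of arrays, and genes are not independent replicates.

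**Figure D1:**
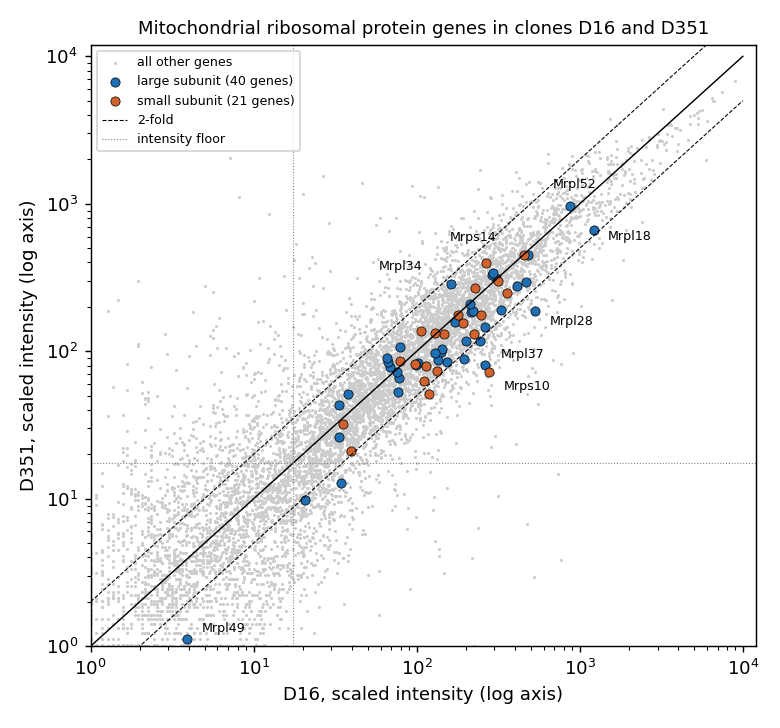
Scaled intensity in D16 (x axis) and D351 (y axis), both on log axes, for all genes (grey) and the 40 large and 21 small subunit genes (coloured); the solid line marks equal levels, the dashed lines 2-fold and the dotted lines the floor of 17.4. Of 60 members with a ratio, 44 lie below the line of equal levels, and 27 with the arrays scaled on hybridization controls; Mrps10, Mrpl37 and Mrpl28 lie farthest below it and Mrpl34 farthest above.

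The subunits differed little from each other. The median log2 ratio was -0.30 over 39 large subunit genes and -0.27 over 21 small subunit genes, a difference of -0.03. The quartiles ran from -0.72 to 0.10 for the large subunit and from -0.80 to -0.01 for the small. Ratios were below 0 for 28 of 39 large subunit genes (71.8%) and 16 of 21 small subunit genes (76.2%), and with hybridization control scaling the medians turned to 0.088 and 0.13. The genes 2-fold or more higher in D16 numbered 4 in the large (10.3%) and 2 in the small subunit (9.52%), near the 8.83% of all genes. At least 1.5-fold higher in D351 was 1 gene of each, Mrpl34 and Mrps14, against 21.1% of all genes. In structures of the mammalian ribosome the protein of Mrps18a lies in the large subunit; counted there, the medians were -0.30 and -0.22.

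With 1 array per clone, error could be gauged from how far probe sets of the same gene differ. In log2 units the pooled SD came to 0.52 for 808 genes of the array and to 0.33 for the 6 members with several probe sets above the floor. A ratio smaller than about 0.52 in size therefore lies within 1 SD, which is what the probe set spread stands for below. Ratios beyond 1 SD can also come from probe set error alone. The probe set spread leaves out the spread between cultures, which these arrays cannot give.

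Promoter sequences are shown for 5 of the 6 genes at least 2-fold higher in D16, and for Mrpl34, the member with the highest ratio of D351 over D16, to set genes that moved in opposite directions side by side. Of the 61 genes, 54 matched the RefSeq promoter table of GRCm38.p6, with 60 promoters. Each window runs from 250 bases before a gene's start to 50 after it, 5′ to 3′ along the gene's strand. Capitals mark matches on either strand to any of 6 motifs: the NRF1-type, the ETS-type CCGGAAG, the YY1-type AAGATGG, the ZNF143-type, the GC box GGGCGG and the TATA box TATAAA. Matches can overlap, as the ETS-type does with a GC box in Mrpl17 and with a ZNF143-type match in Mrpl34.
Mrps10, chr17:47368947-47369246, plus strand: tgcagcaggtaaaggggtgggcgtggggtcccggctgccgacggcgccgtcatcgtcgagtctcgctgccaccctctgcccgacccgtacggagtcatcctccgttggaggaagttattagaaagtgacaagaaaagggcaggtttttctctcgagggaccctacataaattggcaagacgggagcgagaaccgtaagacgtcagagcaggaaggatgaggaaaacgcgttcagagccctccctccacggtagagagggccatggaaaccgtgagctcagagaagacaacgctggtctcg
Mrpl37, chr4:107066817-107067116, minus strand: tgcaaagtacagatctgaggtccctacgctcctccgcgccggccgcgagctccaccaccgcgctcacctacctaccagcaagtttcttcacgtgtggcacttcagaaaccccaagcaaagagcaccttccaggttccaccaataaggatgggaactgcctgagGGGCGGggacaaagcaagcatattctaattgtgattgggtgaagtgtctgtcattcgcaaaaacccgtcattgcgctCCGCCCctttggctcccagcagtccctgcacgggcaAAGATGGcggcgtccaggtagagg
Mrps22, chr9:98601630-98601929, minus strand: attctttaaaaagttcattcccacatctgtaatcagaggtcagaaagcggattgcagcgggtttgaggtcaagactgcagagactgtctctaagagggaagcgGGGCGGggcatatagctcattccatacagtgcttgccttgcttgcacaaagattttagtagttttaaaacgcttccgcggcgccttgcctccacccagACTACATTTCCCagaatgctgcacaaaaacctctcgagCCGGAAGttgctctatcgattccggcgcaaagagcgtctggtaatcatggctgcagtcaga
Mrpl17, chr7:105811038-105811337, minus strand: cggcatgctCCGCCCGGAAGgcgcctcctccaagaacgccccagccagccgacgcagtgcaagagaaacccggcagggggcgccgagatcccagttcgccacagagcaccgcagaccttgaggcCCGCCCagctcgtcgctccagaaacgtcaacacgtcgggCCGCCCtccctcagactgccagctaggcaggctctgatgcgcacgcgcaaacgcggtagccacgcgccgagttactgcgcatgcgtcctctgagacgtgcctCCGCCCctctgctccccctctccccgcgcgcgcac
Mrpl39, chr16:84735195-84735494, minus strand: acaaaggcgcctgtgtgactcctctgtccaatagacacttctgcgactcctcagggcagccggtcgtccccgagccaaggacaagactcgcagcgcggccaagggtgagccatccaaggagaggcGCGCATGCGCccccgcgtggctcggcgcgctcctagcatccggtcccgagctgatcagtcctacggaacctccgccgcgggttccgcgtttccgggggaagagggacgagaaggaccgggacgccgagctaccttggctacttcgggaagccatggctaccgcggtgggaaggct
Mrpl34, chr8:71464676-71464975, plus strand: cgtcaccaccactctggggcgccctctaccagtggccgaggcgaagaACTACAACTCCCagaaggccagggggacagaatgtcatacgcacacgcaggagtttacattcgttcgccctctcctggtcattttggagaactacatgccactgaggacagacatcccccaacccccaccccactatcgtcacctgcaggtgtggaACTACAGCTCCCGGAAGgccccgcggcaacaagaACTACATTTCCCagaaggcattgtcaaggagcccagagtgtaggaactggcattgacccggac

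The ETS-type letters, the core read by ETS factors such as GABP, were in 19 of the 60 promoters of members (31.7%) and in 8.86% of all 32851 promoters of the table, or 11.6% of the 21262 promoters of protein-coding genes. The YY1-type was in 18.3%, 6.34% and 6.24%, the ZNF143-type in 8.33%, 1.81% and 2.54%, and the NRF1-type in 3.33%, 0.971% and 1.33%. Among members the ZNF143-type share rests on 5 of 60 promoters and the NRF1-type share on 2. The GC box was in 53.3% of members' promoters, 35.7% of all and 46.2% of protein-coding ones, and the TATA box in 8.33%, 13.6% and 12.6%. The median GC content was 58.8% over members' promoters and 56.3% over protein-coding ones. Members with and without the ETS-type letters overlapped widely in their ratios. The median log2 ratio was -0.23 for 19 genes with it, from -1.22 to 0.82, and -0.43 for 34 genes without it, from -1.94 to 0.59. Both Mrps22, higher in D16, and Mrpl34, higher in D351, hold an ETS-type and a ZNF143-type match, while the window of Mrps10, with the lowest ratio, holds no match to any of the 6. A match is a run of letters and not a measured binding site.

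Around the peptidyl transferase centre, where amino acids are joined, Mrpl3, Mrpl2 and Mrpl16 were lower in D351 and Mrpl27 was not. Mrpl3, a core protein near that centre, measured 153 in D16 and 84.1 in D351, a 1.82-fold difference. Mrpl2, which anchors the same region, measured 200 and 117 (1.70-fold). Mrpl16, which helps to place transfer RNAs, measured 329 and 190 (1.74-fold). Mrpl27, whose bacterial counterpart also reaches toward this centre, did not share that difference, at 304 in D16 and 315 in D351. Mrpl3, Mrpl2 and Mrpl16 lay beyond the probe set spread and Mrpl27 within it, but with hybridization control scaling those 3 had log2 ratios of -0.47, -0.37 and -0.40, inside the spread.

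Proteins of the tunnel, through which the new chain leaves, went both ways. Mrpl17, at the rim of the tunnel exit, measured 195 in D16 and 89.2 in D351, 2.18-fold higher in D16. Mrpl23, also at the exit, measured 468 and 295 (1.59-fold). Mrpl24 measured 293 in D16 and 341 in D351, a log2 ratio of 0.22, and Mrpl4, which lines the tunnel, 213 and 210. Mrpl45, which sits at the exit and links the ribosome to the inner membrane, was read by 2 probe sets that disagreed in sign. Its brighter one measured 141 and 98.2 (log2 ratio -0.52), and the other 107 and 122 (0.19). Of other mitochondria-specific members, Mrpl39, which is related to threonyl-tRNA synthetase, measured 243 in D16 and 118 in D351, 2.06-fold higher in D16. Mrpl44, a mitochondria-specific protein with a fold like that of RNase III enzymes, measured 38.0 in D16 and 51.6 in D351, a log2 ratio of 0.44, within the probe set spread. With hybridization control scaling Mrpl44 and Mrpl24 had 0.83 and 0.61, beyond that spread, and Mrpl23 had -0.28, within it.

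The stalk binds translation factors. Mrpl12, its flexible protein, measured 264 in D16 and 145 in D351, 1.81-fold higher in D16. Mrpl11, at the base of the stalk, measured 75.9 and 72.6. In the central protuberance, the crown of the large subunit, Mrpl18 measured 1215 in D16 and 669 in D351 by its brightest probe set, 1.82-fold higher in D16. Mrpl46 measured 34.2 in D16 and was below the floor in D351 (12.7), so it was at least 1.96-fold higher in D16. Mrpl48 was read by a pair of probe sets with log2 ratios of -0.48 and -0.86. Mrpl40 and Mrpl38, of the same region, measured 102 and 171 in D16 and 83.0 and 157 in D351. The members named here for this region were not drawn from a full list of it, and Mrpl40 and Mrpl38 were chosen after their values were seen. Their direction therefore does not describe the whole region. In the main scaling the named members were all lower in D351. Mrpl40 and Mrpl38 were so by less than the probe set spread, as was Mrpl48 by its brighter probe set but not by its other. With hybridization control scaling Mrpl40 and Mrpl38 turned to log2 ratios of 0.09 and 0.27. Mrpl12, Mrpl18 and, by its brighter probe set, Mrpl48 then had -0.46, -0.47 and -0.09, inside the spread. Mrpl46, a bound, had -0.78.

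Other large subunit members differed as well. Mrpl37, a mitochondria-specific protein, measured 262 in D16 and 80.2 in D351 and was 3.27-fold higher in D16. Mrpl28, which has a bacterial counterpart, measured 535 and 188 (2.85-fold). Mrpl58, a peptidyl-tRNA hydrolase that was built into the ribosome, measured 134 and 87.2 (1.54-fold). In the other direction, Mrpl34, a short protein with a bacterial counterpart, measured 162 in D16 and 286 in D351 and was 1.77-fold higher in D351. Mrpl33 and Mrpl9, which have bacterial counterparts too, had log2 ratios of 0.46 (65.6 and 90.2) and 0.44 (78.9 and 107). Mrpl55 and Mrpl20 had log2 ratios of 0.37 and 0.36. In the main scaling, of the genes higher in D351, Mrpl34 and Mrps14 lay beyond the probe set spread, and the others within it. Mrpl52 measured 877 and 969 and Mrpl51 484 and 449, levels within that spread as well. With hybridization control scaling Mrpl34 had a log2 ratio of 1.21. Mrpl33, Mrpl9, Mrpl55 and Mrpl20 were then beyond the spread too, at 0.85, 0.83, 0.76 and 0.75, and Mrpl58 fell inside it at -0.23.

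**Figure D2:**
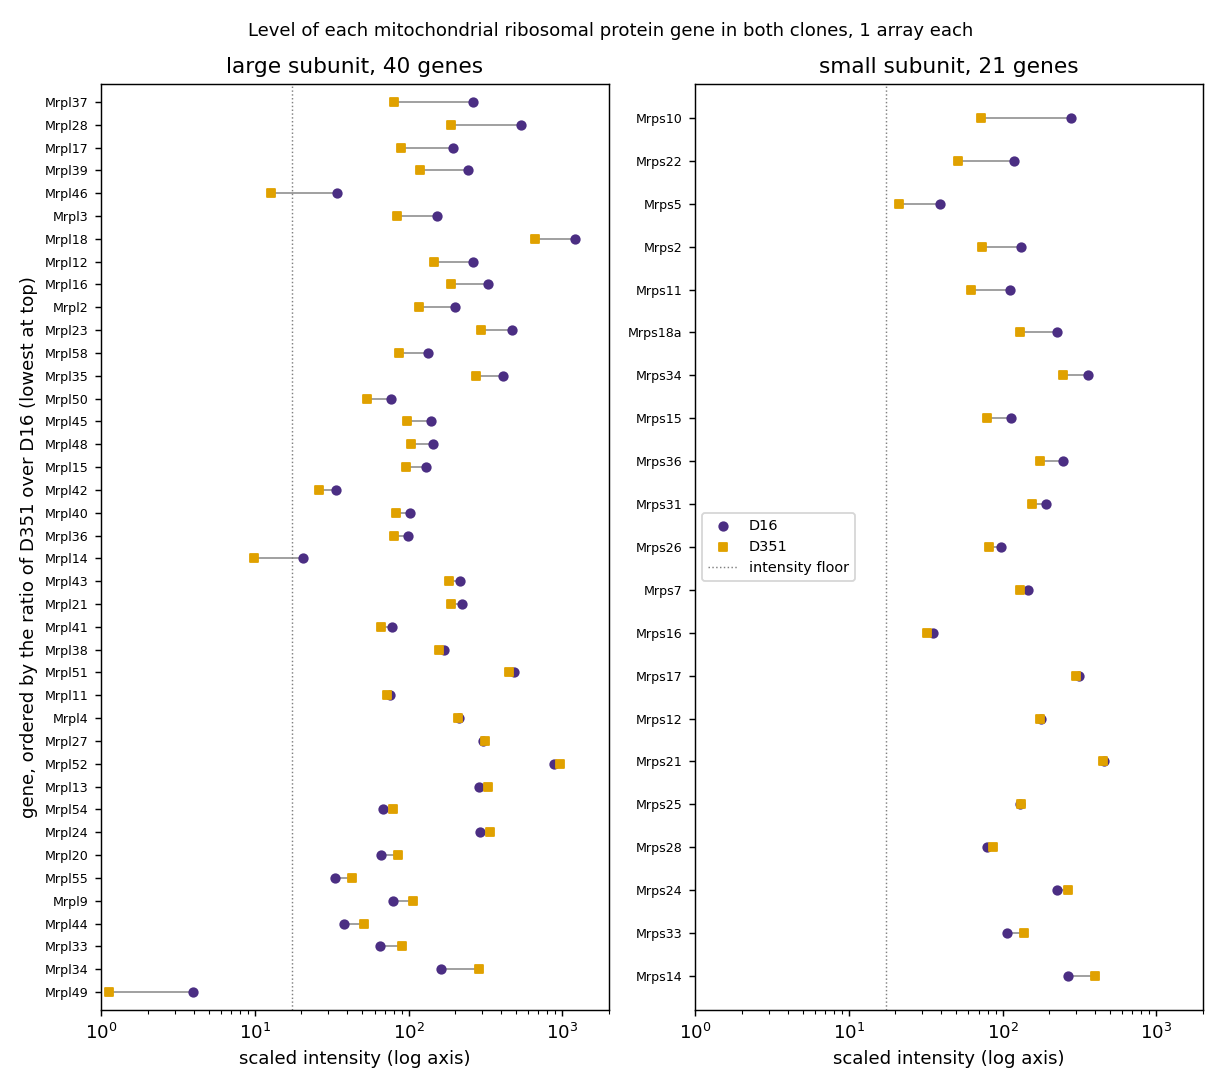
Scaled intensity (log x axis) of each large subunit gene (left, 40 genes) and small subunit gene (right, 21 genes) in D16 (circles) and D351 (squares), ordered by the ratio of D351 over D16, with levels below the floor set to it and the lowest ratio at the top; Mrpl49, with no ratio, stands at the bottom of the left panel and the dotted line is the floor of 17.4. Intensities fall from D16 to D351 in 28 of 39 large and 16 of 21 small subunit genes with a ratio, while the lowest rows of both panels, such as Mrpl34 and Mrps14, run the other way; with hybridization control scaling 27 of all 60 genes fall.

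The small subunit reads the messenger RNA. Mrps12, at its decoding centre, measured 178 in D16 and 175 in D351 and so was nearly equal between the clones. In the head of the subunit, Mrps10 measured 279 in D16 and 72.9 in D351, 3.83-fold higher in D16, the lowest ratio of all members. Mrps14, also of the head, measured 265 in D16 and 400 in D351, 1.51-fold higher in D351. Mrps7, another head protein, measured 146 and 130, and Mrps24, which has its bacterial counterpart in the head too, 227 and 267 (log2 ratio 0.24). Neighbours in the structure thus had ratios on both sides of 1.

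In the rest of the small subunit, Mrps22, a mitochondria-specific protein, measured 119 in D16 and 51.1 in D351 and was 2.33-fold higher in D16. Mrps5 measured 39.4 and 21.1 (1.87-fold), with the D351 level near the floor. Mrps2 measured 133 and 73.1 (1.82-fold) and Mrps11 111 and 62.7 (1.77-fold), both from proteins with bacterial counterparts. Mrps34, mitochondria-specific, measured 360 and 247 (1.46-fold), and Mrps33, also mitochondria-specific, 106 and 137 (log2 ratio 0.37). Mrps16 measured 35.3 and 32.3, Mrps17 316 and 299, and Mrps21 455 and 452. Mrps36, whose protein is now counted as a part of the oxoglutarate dehydrogenase complex and not of the ribosome, measured 249 and 175 (log2 ratio -0.51). The remaining members, Mrpl13, Mrpl15, Mrpl21, Mrpl35, Mrpl36, Mrpl41, Mrpl42, Mrpl43, Mrpl54, Mrps15, Mrps26, Mrps28 and Mrps31, had log2 ratios from -0.58 (Mrpl35, 410 and 275) to 0.20 (Mrpl54, 68.4 and 78.8). Among them Mrpl35 alone lay beyond the probe set spread, and with hybridization control scaling its ratio was -0.18, within it. Mrpl13 and Mrpl54 were then beyond it, at 0.57 and 0.60, and Mrps28 was at its edge (0.52). Of the small subunit genes named above, Mrps5, Mrps2, Mrps11 and Mrps34 fell inside it with that scaling, at -0.51, -0.47, -0.43 and -0.15. Mrps22 stayed beyond it at -0.83, and Mrps33 passed it at 0.76.

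Members with and without a bacterial counterpart had similar medians. The median log2 ratio was -0.24 over 36 genes with a bacterial counterpart and -0.30 over 21 mitochondria-specific genes. Each class had 3 genes that were 2-fold or more higher in D16 (8.33% and 14.3%) and 0 that were so in D351. Over all genes these shares were 8.83% in D16 and 10.6% in D351. Within the large subunit the medians were -0.27 (22 genes) and -0.30 (15 genes), and within the small subunit -0.15 (14 genes) and -0.28 (6 genes). Mrpl55, Mrpl58 and Mrps36 were not classed.

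Of the 61 genes, 12 had more than 1 probe set, and 6 of these had more than 1 above the floor. Mrps18a had 4, with log2 ratios of -0.99, -0.80, -0.75 and -0.01; the first and the last were designed on the same accession. The probe sets of Mrpl18, also designed on 1 accession, had ratios of -0.86 and -0.74, and those of Mrpl50 had -0.54 and -0.51. Mrps25 had 0.03 and -0.02. In Mrpl45 and Mrps25 the signs differed, and in the other 4 genes they were the same. Mrpl18, Mrpl48 and Mrps25 were represented by a probe set with the suffix f, a kind that can match transcripts of related genes. For Mrpl2, Mrpl15, Mrpl36 and Mrpl46 the second probe set was below the floor in both clones, as was one of 3 for Mrpl50. Mrpl14 measured 20.6 and 9.87 by one probe set, and its other was below the floor in both clones. The 6 genes at least 2-fold apart, Mrps10, Mrpl37, Mrpl28, Mrps22, Mrpl17 and Mrpl39, each had 1 probe set, so their ratios have no second reading.

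**Figure D3:**
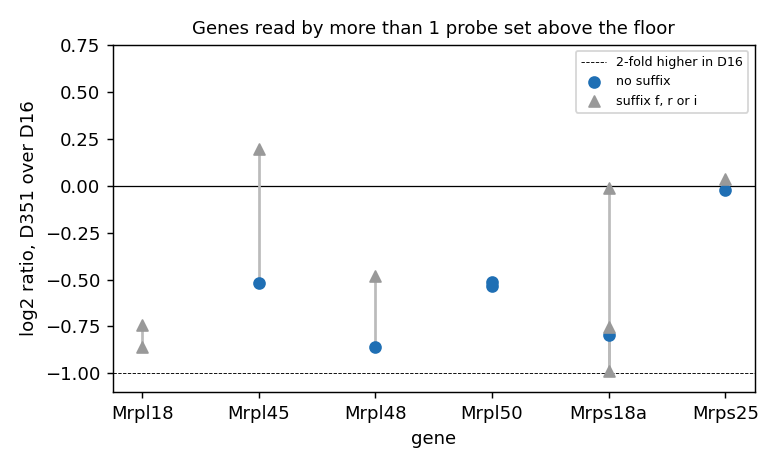
Log2 ratio of D351 over D16 (y axis) for every probe set above the floor of the 6 members with more than 1 (x axis); circles have no suffix, triangles have the suffix f, r or i, and the dashed line marks 2-fold higher in D16. The probe sets of Mrpl18 and Mrpl50 lie close together, those of Mrps18a range from -0.99 to -0.01, and those of Mrpl45 and Mrps25 lie on both sides of 0.

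Member ratios were also read by chromosome. On chromosomes 4, 7 and 17, which were singled out after the values were seen, 16 of 17 members had a ratio below 0, as did 68.1% of all genes there, and 4 were among the 6 past 2-fold (Mrpl37 on chromosome 4, Mrpl17 on chromosome 7, and Mrps10 and Mrpl28 on chromosome 17). Their median was -0.77. All 1186 measured genes of these chromosomes together had a median of -0.29, and 16.4% of them were at least 2-fold higher in D16. On the other chromosomes the 43 members had a median of -0.13, with 28 below 0, against 47.4% of all genes there, and 2 (Mrps22 and Mrpl39) past 2-fold. Low member medians were not limited to those 3 chromosomes, since that of the 3 members on chromosome 9 (Mrps22, Mrpl3 and Mrpl4) was -0.86. All 4915 measured genes outside chromosomes 4, 7 and 17 had a median of 0.04, with 7% at least 2-fold higher in D16. Taken relative to the median of each gene's own chromosome, 5 of 60 members were past 2-fold in D16, near the 7.83% of all genes. In D351 0 members passed it, against 10.1% of all genes, and the median of all members was -0.22. The part of chromosome-wide differences in the members' ratios was not tested.

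Other genes that serve mitochondrial translation were set beside the members. Their counts stand against 8.83% of all genes past 2-fold in D16 and 10.6% in D351. Of 2 ribosomal proteins with other symbols, Ptcd3, of the small subunit, was 2.11-fold higher in D16 (286 and 136), and Dap3, also of the small subunit, measured 124 and 125. Of 5 measured translation factors, 2 were 2-fold or more higher in D16, with 0 so in D351. These were the elongation factors Gfm1 (125 and 52.0, 2.40-fold) and Tufm (240 and 116, 2.08-fold). Tsfm, which recharges Tufm, measured 165 and 134. Of 9 measured factors of ribosome assembly and ribosomal RNA modification, 2 were 2-fold or more higher in D16, with 0 so in D351: Nsun4, a ribosomal RNA methyltransferase (68.8 and 23.6, 2.91-fold), and Ngrn, needed for the large ribosomal RNA (146 and 57.5, 2.54-fold). The list medians were -0.31 for translation factors and -0.29 for assembly factors. With hybridization control scaling 0 translation factors and 1 assembly factor passed 2-fold in D16, against 4.10% of all genes, and Ptcd3 no longer did.

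Of 5 mitochondrial aminoacyl-tRNA synthetases, which load transfer RNAs, 1 was 2-fold or more higher in D351, with 0 so in D16. This was Iars2, the isoleucine enzyme, at 41.9 in D16 and 173 in D351 (4.14-fold). Of 13 genes of mitochondrial DNA expression and its regulators, 2 passed 2-fold in D16, Lrpprc, which stabilises mitochondrial messenger RNAs (379 and 116, 3.25-fold), and Myc (160 and 74.1, 2.16-fold). Tfb2m, a mitochondrial transcription factor, was 2.74-fold higher in D351 (38.5 and 105). Gabpa, an ETS factor that binds promoters of mitochondrial genes, measured 80.2 and 74.5, and Esrra, a nuclear receptor that regulates them, 88.5 and 105. Tfam and Ppargc1a were below the floor in both clones. Of 16 genes of the mitochondrial matrix, outer membrane and import machinery, 2 differed by 2-fold or more, both higher in D16, the matrix chaperone gene Hspa9 (2408 and 749, 3.22-fold) and the import channel gene Tomm40 (118 and 56.4, 2.10-fold). The list median was -0.44, and Cs, which encodes citrate synthase, measured 754 and 622.

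Related groups of the array were set beside the members as well. Cytosolic ribosomal proteins had a median log2 ratio of -0.34 over 28 genes, with 24 below 0 and 1 gene at least 2-fold higher in each clone. These were Rpl13a in D16 (1309 and 499, 2.63-fold) and, in D351, Rps4l, at least 8.57-fold higher there since its D16 value lay under the floor. How near this list lies to the members depends on the scaling. Its median was -0.02 with quantile normalization and -0.08 with intensity-dependent loess, where that of the members was -0.30 and -0.26. Nuclear subunits and assembly factors of the respiratory chain and ATP synthase had a median of -0.25 over 66 genes, with 46 below 0. Of these genes, 5 passed 2-fold in D16 and 0 in D351, against 8.83% and 10.6% of all genes. With hybridization control scaling the balance was 3 in D16 and 4 in D351, against 4.10% and 19.9%. The 5 were Cox6a2, the heart and muscle isoform of a complex IV subunit (406 and 23.5), Uqcrc2 of complex III, Ndufa10 of complex I, Atp5pb of ATP synthase and the assembly factor Ndufaf4. Among 3481 genes of the whole array with mean intensities from 44.1 to 344, the range of the members' 10th to 90th percentile, the median was 0.01, and 49.6% were below 0. With hybridization control scaling the medians of all these groups rose together, to 0.092 for the members, 0.04 for cytosolic ribosomal proteins, 0.13 for the respiratory chain and 0.34 for all genes. Those of translation factors, synthetases and assembly factors turned above 0 as well, while that of matrix, outer membrane and import genes stayed below it at -0.05. The members' median then lay 0.25 below that of all genes, as against 0.26 in the main scaling.

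**Figure D4:**
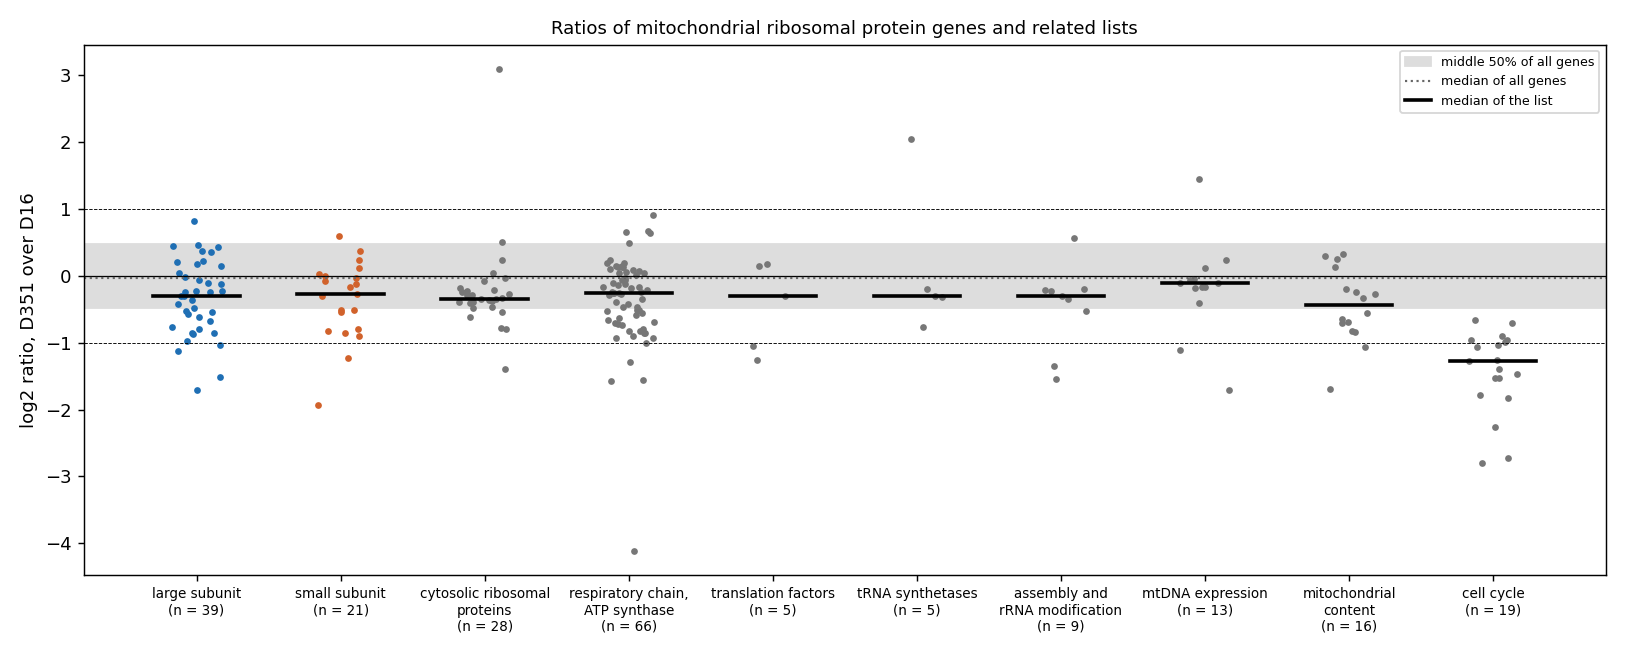
Log2 ratio of D351 over D16 (y axis) for each measured gene of the large and small subunit and of 8 related lists (x axis, with the number of genes); short bars are list medians, the grey band is the middle 50% of all genes, the dotted line their median and dashed lines mark 2-fold. The medians of the large (-0.30) and small (-0.27) subunit lie near those of cytosolic ribosomal proteins (-0.34) and the respiratory chain (-0.25), and the cell cycle list lies lowest at -1.27; with hybridization control scaling these medians are 0.088, 0.13, 0.04, 0.13 and -0.88, and with quantile normalization and loess that of cytosolic ribosomal proteins is -0.02 and -0.08, away from the members' -0.30 and -0.26.

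Other properties of the cultures and arrays moved with these differences. Of 19 measured cell cycle genes, 13 passed 2-fold in D16 and 0 in D351, against 8.83% and 10.6% of all genes. With hybridization control scaling 8 passed it in D16, against 4.10% of all genes. The median of all 19 was -1.27, with a summed intensity over the 20 genes on the array of 7925 in D16 and 2986 in D351. Of 10 measured fibroblast markers, 5 passed 2-fold in D351 and 1 in D16, against 10.6% and 8.83% of all genes. The list summed to 8941 and 12645 over 11 genes. Higher in D351 were Col1a1, Col1a2, Col3a1, Lum and Postn, higher in D16 was S100a4, and Fap was below the floor. By less than 2-fold, Twist1 (259 and 150) and Thy1 (1534 and 1041) were higher in D16 and Dcn (437 and 669) in D351. Of 7 smooth muscle markers, 5 (Tagln, Cnn1, Myh11, Mylk and Actg2) were at least 2-fold higher in D351, against 10.6% of all genes. Their list had sums of 1821 and 5477. The 6 blood cell markers on the array summed to 65.9 and 76.0, with Ptprc, Adgre1 and Itgam below the floor. Of the other blood cell markers Cd68 was higher in D351 (3.73 and 36.9), while Csf1r (21.9 and 18.2) and Spi1 (26.6 and 11.2) were lower. The 6 endothelial markers summed to 64.7 and 98.3, with Cdh5, Tek, Kdr and Vwf below the floor. Flt1 was higher in D351 (16.2 and 66.2) and Pecam1 lower (30.8 and 20.3), so both sums rose through a single gene. RNA integrity was read from Actb as its 3′ probe set over its 5′ one, and this ratio was 1.81 in D16 and 1.37 in D351. The same ratio of Gapdh was 1.56 and 1.44. The 9 hybridization controls had a median log2 ratio of -0.39. The part of each of these in the members' ratios was not tested.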

How the data were processed

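Total RNA of each clone was measured on 1 array. The intensity values per probe set are as the authors deposited them. How they were computed, background-corrected and scaled is not given in the sources used here. Their 2% trimmed mean was 100.1 in both arrays, and their medians were 31.8 in D16 and 29.7 in D351. They are linear and not centred by gene, and no detection call was used.

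Names come from a platform annotation written for version 2 of the U74A array, a version the labels do not state. It gave 10833 of 12422 non-control probe sets 1 symbol, 396 several and 1193 none, and the 66 controls were left out. Symbols were updated by Entrez number to RefSeq (GRCm38.p6), and all 76 member probe sets matched with the same symbol. The arrays were multiplied by 0.983 (D16) and 1.02 (D351) to equal medians over probe sets that reached the floor in each. Values below the floor of 17.4 were set to it, and a gene below it in 1 clone has a bound. The floor was reached by 60.6% (D16) and 59.4% (D351) of probe sets other than controls. There is 1 array per clone, so no test was run and the number of arrays limits the precision.

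Members and lists were chosen with earlier results of these data known. The rule for named genes took the 10 highest and 10 lowest ratios among members measured in both clones, members at least 2-fold apart, members with several probe sets, the 3 with the highest intensities in each subunit and those below the floor in 1 clone. From each pathway list it took up to 4 genes at least 2-fold apart, or the 2 highest where none was; the respiratory chain list has all 5 named, 1 more than the rule. Named outside it, after their values were seen, were Mrpl4, Mrpl11, Mrpl12, Mrpl16, Mrpl23, Mrpl27, Mrpl38, Mrpl40, Mrpl58, Mrps7, Mrps11, Mrps12, Mrps16, Mrps34, Mrps36, Dap3, Tsfm, Gabpa, Esrra, Tfam, Ppargc1a and Cs, and the genes of the marker lists. Mrpl13, Mrpl21, Mrpl35, Mrpl41, Mrpl42, Mrpl43, Mrpl54, Mrps15, Mrps26, Mrps28 and Mrps31 were also outside the rule and were named as remaining members. The functions were tested on simulated arrays with known ratios. Alternatives covered scaling, floor, probe set rule, size and summary. Python 3.11.15 was used with numpy 2.4.6, pandas 2.3.3, scipy 1.17.1, statsmodels 0.14.6 and matplotlib 3.10.9.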

Additional observations from a re-analysis of the deposited data

Results flagged for a closer look

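Some probe sets name a mitochondrial ribosomal protein gene together with another gene and so were not counted as members, but had an intensity above the floor. The probe set for Gm13552 and Mrps18b measured 407 in D16 and 189 in D351, for a log2 ratio (D351 over D16) of -1.11. The one for Gm6238 and Mrpl30 measured 443 and 384 (-0.21), and the one for Ccdc142 and Mrpl53 95.1 and 102 (0.11). The probe sets for Nme3 and Mrps34 differed in direction: one measured 50.7 and 35.7 (-0.50), and the other, below the floor in D16, 34.6 in D351 (at least 0.99). The gene behind each signal was not tested.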

How the results depend on the processing

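No paired analysis was possible because only 1 array stands for a clone, which also leaves no replicate to omit. The ratios relative to each chromosome were chosen after seeing the data. Of 165 counts and medians of the members under 15 alternatives, 147 stayed close to the main value, some of them by construction. Scaling on the hybridization controls changed the sign of the medians, to 0.092 for all members, 0.088 for the large and 0.13 for the small subunit. The counts at least 2-fold higher in D16 were then 3, 2 and 1, against 4.10% of all genes. Those higher in D351 were 1 for all members and 1 for the large subunit, against 19.9% of all genes. Of the 6 genes, Mrps10, Mrpl37 and Mrpl28 stayed at least 2-fold higher in D16 there, and in all 11 alternatives that gave single genes a value. With the floor at the 60th percentile the median of all members was -0.35. At 1.5-fold, 18 members were higher in D16 (12 large, 6 small) and 2 in D351 (1 large, 1 small), against 21% and 21.1% of all genes. At 3-fold 2 were higher in D16 (1 large, 1 small), against 2.61% of all genes. The members' median minus that of all genes ranged from -0.32 to -0.22 over the 10 alternatives that could move it, and the difference of means was -0.37; the thresholds and the membership rules leave it as it is by construction. With hybridization control scaling, the share of 2-fold differences over all genes that favoured D351 was 82.9%, up from 54.5%. Of 652 values of single genes, 1 moved by more than the probe set spread (Mrpl14, -1.08 with the floor at the 25th percentile), and some could not move by construction. Scaling on the hybridization controls shifted each gene by less than that spread, so its shifts are not counted here. Even so, 27 of 60 ratios were below 0 with it, against 44 in the main scaling. Levels near the floor, as for Mrpl46, Mrpl14 and Mrps5, limit the size of a ratio.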
